A study of Mus musculus with 28 samples.

Results

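Cyp3a11, Cyp3a13 and Cyp3a25, 3 cytochrome P450 genes of the Cyp3a subfamily, were followed across the livers of 28 male C57BL/6J mice fed an intermittent diet, with 1 array for each mouse. They are 3 of the 18820 genes that the array annotation names through a probe set of their own. Each was read from the probe set that names it alone (probe sets 10535704, 10534945 and 10535714, in that order). All mice began their diet at 9 weeks of age. The lifelong groups alternated a week of freely available moderate-fat food, with 25% of its energy from fat, with a week held to 60% of the energy that control-fed mice ate. Of these mice, 6 were sampled at an age of 6 months, 7 at 12 months and 7 at 24 months. The switched group ate the moderate-fat food alone until 12 months of age, then changed to the alternating diet, and was sampled at 24 months (n = 8). Before sampling every mouse was fasted for 4 hours, given carboxymethyl cellulose into the stomach and fasted for another 6 hours. In the lifelong groups an older mouse had also spent longer on the diet, so the effects of age and of diet duration cannot be told apart. The labels do not state whether a mouse was sampled in a moderate-fat or a restricted week, and livers of mice on other diets were not analysed here.

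Cyp3a enzymes are haem proteins of the endoplasmic reticulum that oxidise steroids, bile acids and a large share of drugs, with electrons passed on by P450 reductase and cytochrome b5. In hepatocytes their genes are known as targets of the pregnane X receptor (PXR, Nr1i2) and the constitutive androstane receptor (CAR, Nr1i3), which bind paired hexamers in DNA together with RXR, and of hepatocyte nuclear factors such as HNF4A. Cyp3a11 is the major inducible form in mouse liver and is often taken as the mouse counterpart of human CYP3A4. Cyp3a25 and Cyp3a13 are further forms found in liver and intestine. Cyp3a41a, Cyp3a41b and Cyp3a44 are known for higher levels in female than in male liver, and Cyp3a16 for its level around birth.

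In RefSeq all 9 protein-coding Cyp3a genes of the mouse lie on chromosome 5. A cluster of 8 of them runs from Cyp3a57 to Cyp3a59 with no other protein-coding gene inside it, and it holds Cyp3a11 and Cyp3a25 as direct neighbours, with 0 protein-coding genes between them. Cyp3a44 lies directly on the other side of Cyp3a11. Cyp3a13 stands outside the cluster, 121 protein-coding genes away from Cyp3a57. The 250 bases before the start of each gene are shown so that the neighbours Cyp3a11 and Cyp3a25, whose values are compared with each other, and the distant Cyp3a13 can be read side by side. They are RefSeq sequences of build GRCm38.p6, written 5′ to 3′ towards the start of the gene, with capitals on every AGGTCA or AGTTCA (half-sites known from nuclear receptors) and every CAAAGTCCA (a form bound by HNF4A), on either strand.
Cyp3a11, chr5:145879855-145880104, minus strand: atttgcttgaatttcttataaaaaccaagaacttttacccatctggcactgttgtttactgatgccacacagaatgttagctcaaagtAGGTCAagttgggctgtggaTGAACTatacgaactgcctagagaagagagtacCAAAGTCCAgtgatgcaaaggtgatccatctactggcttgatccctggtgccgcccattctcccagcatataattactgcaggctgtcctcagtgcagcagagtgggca
Cyp3a25, chr5:146009619-146009868, minus strand: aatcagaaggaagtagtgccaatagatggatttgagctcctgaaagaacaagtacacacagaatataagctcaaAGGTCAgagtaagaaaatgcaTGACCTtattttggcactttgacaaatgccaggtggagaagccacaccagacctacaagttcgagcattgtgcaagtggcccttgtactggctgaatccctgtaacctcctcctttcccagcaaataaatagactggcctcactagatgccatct
Cyp3a13, chr5:137921620-137921869, minus strand: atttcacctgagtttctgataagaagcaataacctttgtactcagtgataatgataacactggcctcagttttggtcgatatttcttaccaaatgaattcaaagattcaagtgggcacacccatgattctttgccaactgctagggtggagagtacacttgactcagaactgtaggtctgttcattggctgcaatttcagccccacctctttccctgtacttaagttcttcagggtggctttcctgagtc
The Cyp3a11 window held AGGTCA at -162, AGTTCA on the opposite strand at -142 and CAAAGTCCA at -109, counted from the start of the gene. The Cyp3a25 window held AGGTCA at -176 and on the opposite strand at -155, and no CAAAGTCCA. None of these letters occurred in the Cyp3a13 window. Among 27025 windows of the same length in the RefSeq table, 13.8% held AGGTCA, 11.9% held AGTTCA and 0.381% held CAAAGTCCA on either strand. No member's window held a pair of half-sites, of either spelling, in the same direction with 3 bases between (a DR3) or back to back with 6 bases between (an ER6). Each of these pairs occurred in 0.0111% of the windows, and matches inside a pair were counted for the single half-sites too. Over an alignment of the windows, Cyp3a11 was 52.7% identical to Cyp3a25 and 53.5% to Cyp3a13, while it was 71.7% identical to Cyp3a44 and 76.2% to Cyp3a16. Cyp3a25 was 94.8% identical to Cyp3a59 and 88.9% to Cyp3a57.

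The values are log2 expression levels from robust multi-array averaging (RMA), in which 1 unit is a doubling of the signal. Array medians lay between 5.23 and 5.31, and pairs of arrays correlated at 0.978 to 0.992 over all 35556 probe sets. Albumin, the defining hepatocyte protein, was bright in every group (group means 13.59 to 13.67), and of 11 intestinal markers 7 lay below the array medians in every group, among them Sis (2.61 to 2.71) and Vil1 (4.11 to 4.21). The group means of 3 lay above them, Apoa4 (11.97 to 13.02), Fabp2 (10.42 to 10.75) and Cdx1 (5.57 to 5.58), and those of Slc5a1 on both sides (5.21 to 5.48). The array names begin with G150, G151 or G152, a prefix whose meaning the labels do not state. Each prefix held arrays of all 4 groups, and it was a term of the linear model fitted in limma over all 28 arrays. Differences below are from that model, with the moderated standard error (SE), and adjusted p is the Benjamini-Hochberg value among the 35556 probe sets, with a threshold of 0.05. Exceptions are the differences within a prefix and the shifts between genes within a liver. These are plain differences of group means with no prefix term, unless said otherwise. Cyp3a11 was brighter than 98.9% of probe sets, Cyp3a25 than 99.0% and Cyp3a13 than 96.8%. In bulk liver fewer cells of a type and less RNA per cell cannot be told apart.

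No member of the family passed the threshold in any of the comparisons. In the limma fit 0 of 3 were called for 12 with 6 months (0.591% of all probe sets were), 0 for 24 with 6 months (4.73%), 0 for 24 with 12 months (0.0253%) and 0 for the switched with the lifelong group at 24 months (0.0197%). At an unadjusted p under 0.05 the counts were 0, 1, 1 and 1 of 3, each time Cyp3a11, against 13.1%, 19.2%, 11.1% and 7.58% of all probe sets. The switched livers were also set beside the younger lifelong groups, from which they differ in both age and diet history. There 0 of 3 were called against 6 months, where 10% of probe sets were, and 0 against 12 months, where 2.32% were. Unadjusted, 1 of 3 (Cyp3a25) lay under 0.05 against 6 months and 0 against 12 months, against 23.5% and 17.5% of probe sets. The comparisons share groups of livers and are not independent of each other.

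**Figure D1:**
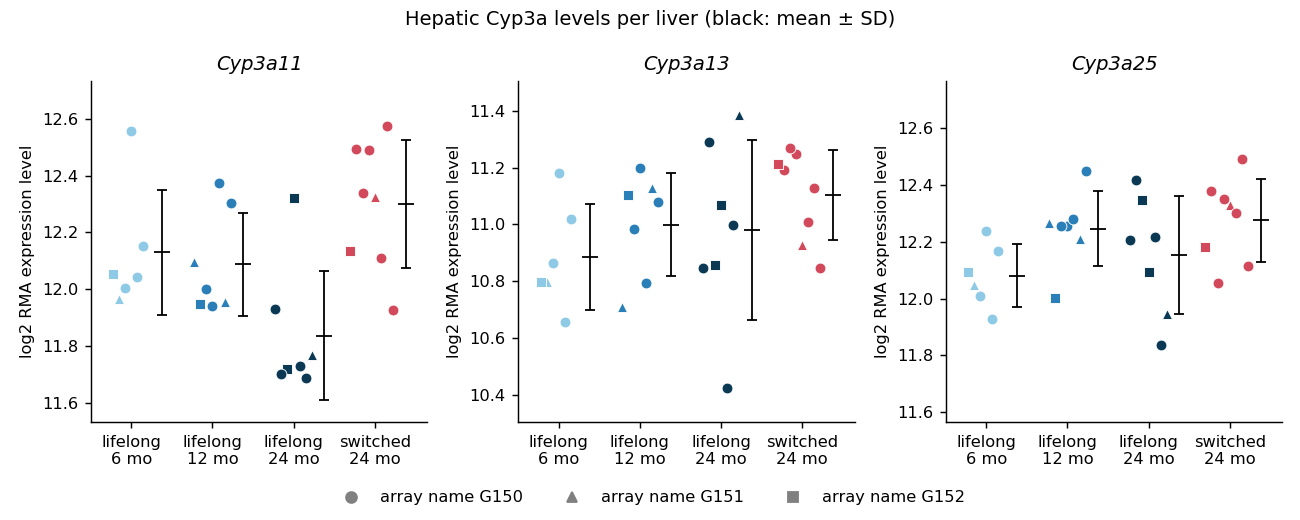
Log2 RMA level of Cyp3a11, Cyp3a13 and Cyp3a25 (y axis) in each liver, by group (x axis), with the point shape giving the array-name prefix and the black bar the mean ± SD. Of the 7 lifelong livers at 24 months, 6 lie at 11.69 to 11.93 for Cyp3a11, below every younger liver, while the groups overlap for Cyp3a13 and Cyp3a25.

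Cyp3a11 was lowest in the lifelong livers at 24 months and highest in the switched livers of the same age. At 6 months its levels ran from 11.97 to 12.56 with a median of 12.05 (mean 12.13 ± 0.22, SD, n = 6). At 12 months they ran from 11.94 to 12.37 with a median of 12.00 (12.09 ± 0.18, n = 7). At 24 months of lifelong diet 6 of 7 livers lay between 11.69 and 11.93, below every 6-month and every 12-month liver, and replicate 1 stood at 12.32, which gave a median of 11.73 (11.84 ± 0.23, n = 7). The switched livers ran from 11.93 to 12.58 with a median of 12.33 (12.30 ± 0.22, n = 8). All groups overlapped with each other, the oldest lifelong group through replicate 1 alone against the younger ages.

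Of all differences fitted for the 3 genes, the largest lay between the diet histories at 24 months. Cyp3a11 was 0.46 log2 units higher in the switched than in the lifelong livers (SE 0.11, 95% confidence interval 0.23 to 0.69), or 1.37-fold (1.17 to 1.61). The p was 0.000417 before adjustment, rank 64 of 35556, and 0.229 after Benjamini-Hochberg adjustment in limma. All 8 switched livers lay above the mean of the lifelong livers and 5 of 8 lay above every one of them. Within the array-name prefixes the difference was 0.56 in G150 (6 against 4 livers), 0.56 in G151 (1 against 1) and 0.12 in G152 (1 against 2). Replicate 1 of the lifelong group carries the G152 prefix. Without that liver the difference was 0.53 with an adjusted p of 0.0263 in limma, the single one of the 15 fits that leave out a liver in which it passed, and the adjusted p ran from 0.0263 to 0.501 over the 15.

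With age on the lifelong diet Cyp3a11 was lower at 24 months by values that did not pass the adjusted threshold. The difference between 12 and 6 months was -0.03 (SE 0.12, adjusted p 0.950 in limma). Between 24 and 6 months it was -0.29 (SE 0.12, unadjusted p 0.0223, adjusted p 0.166 in limma), a level 1.22-fold lower, and 6 of 7 livers lay below every 6-month liver. Between 24 and 12 months it was -0.26 (SE 0.12, unadjusted p 0.0343, adjusted p 0.400 in limma). Within G150 these values were -0.43 and -0.39, in G151 -0.20 and -0.25, and in G152, which holds replicate 1, -0.04 and 0.07. Leaving out 1 liver at a time, the difference between 24 and 6 months ran from -0.37 to -0.21.

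In the order of group means Cyp3a11 went from lifelong 24 months through 12 and 6 months to the switched livers, and no neighbours in that order differed beyond the threshold. The switched livers lay 0.16 above the 6-month livers (95% confidence interval -0.07 to 0.40, adjusted p 0.420 in limma) and 0.20 above the 12-month livers (-0.03 to 0.43, adjusted p 0.381 in limma).

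Cyp3a13, the form outside the cluster, had group means within 0.22 log2 units of each other and its widest spread in the oldest lifelong livers. Its levels ran from 10.66 to 11.18 with a median of 10.83 at 6 months (10.89 ± 0.19, n = 6) and from 10.71 to 11.20 with a median of 11.08 at 12 months (11.00 ± 0.18, n = 7). At 24 months they ran from 10.43 to 11.38 with a median of 11.00 (10.98 ± 0.32, n = 7), so this group held both the lowest and the highest liver of the whole series. The switched livers ran from 10.85 to 11.27 with a median of 11.16 (11.10 ± 0.16, n = 8). All 4 groups overlapped.

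The differences in Cyp3a13 were 0.11 between 12 and 6 months (95% confidence interval -0.14 to 0.37), 0.09 between 24 and 6 months (-0.16 to 0.35) and -0.02 between 24 and 12 months (-0.27 to 0.23). Switched livers lay 0.13 above lifelong livers at 24 months (-0.11 to 0.37, adjusted p 0.867 in limma), with 6 of 8 above the lifelong mean. The sign of that difference was not the same in every prefix, at 0.23 in G150, -0.45 in G151 and 0.25 in G152. The order of group means was 6 months, lifelong 24 months, 12 months and switched, and the ends of that order differed by 0.22 (unadjusted p 0.0814, adjusted p 0.281 in limma).

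Cyp3a25, the neighbour of Cyp3a11 in the cluster, had the smallest SD of the 3 genes in each of the 4 groups. Its levels ran from 11.93 to 12.24 with a median of 12.07 at 6 months (12.08 ± 0.11, n = 6) and from 12.00 to 12.45 with a median of 12.26 at 12 months (12.25 ± 0.13, n = 7). At 24 months of lifelong diet they ran from 11.84 to 12.42 with a median of 12.21 (12.15 ± 0.21, n = 7). The switched livers ran from 12.06 to 12.49 with a median of 12.31 (12.28 ± 0.15, n = 8). The groups overlapped, although 5 of 7 livers at 12 months lay above every 6-month liver.

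Cyp3a25 was 0.17 higher at 12 than at 6 months (SE 0.09, unadjusted p 0.0638, adjusted p 0.424 in limma). The differences were 0.08 between 24 and 6 months (95% confidence interval -0.10 to 0.26) and -0.09 between 24 and 12 months (-0.27 to 0.08). Between switched and lifelong livers at 24 months it was 0.11 (-0.06 to 0.28, adjusted p 0.809 in limma), with 0.11, 0.38 and -0.04 in G150, G151 and G152. The order of group means was that of Cyp3a13, and its ends, switched and 6 months, differed by 0.19 (unadjusted p 0.0353, adjusted p 0.172 in limma).

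**Figure D2:**
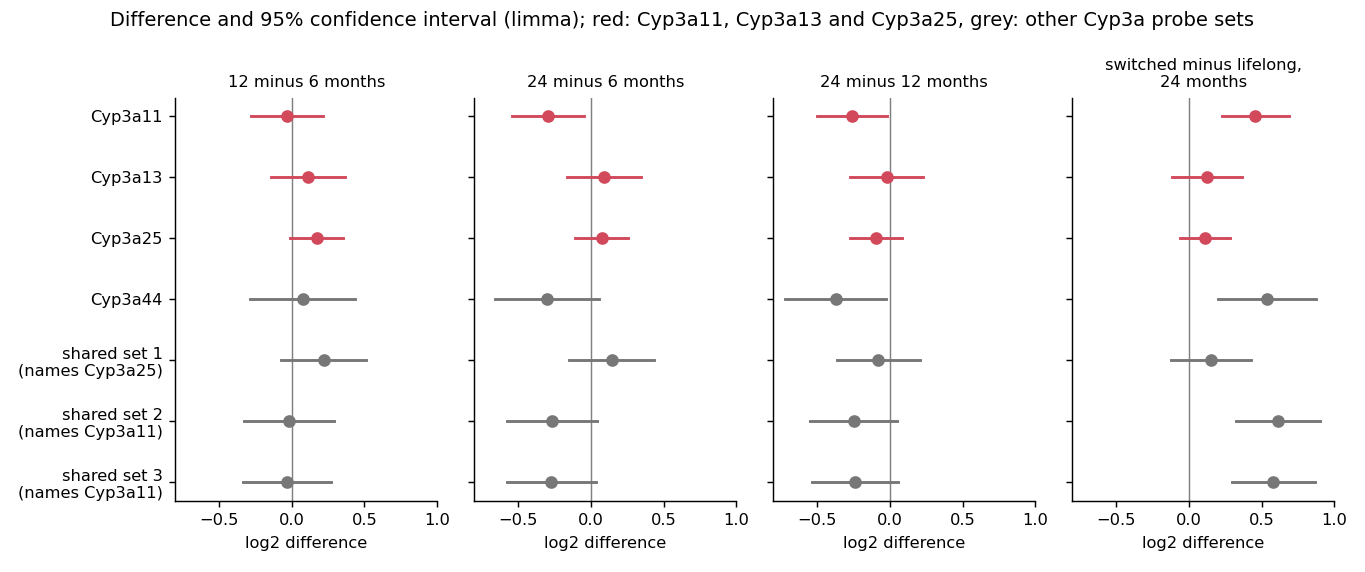
Log2 difference (x axis) in 4 comparisons for the 3 genes (red), for Cyp3a44 and for the 3 probe sets that several Cyp3a genes share (grey), with the bar giving the 95% confidence interval from limma. Cyp3a11, Cyp3a44 and shared sets 2 and 3 lie at 0.46 to 0.61 in the panel of switched against lifelong livers, and Cyp3a13, Cyp3a25 and shared set 1 at 0.11 to 0.15.

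Whether Cyp3a11 moved by a different amount from the other genes was tested on the difference between 2 genes within each liver, centred on its mean over the 28 livers. For Cyp3a11 minus Cyp3a25 the lifelong livers at 24 months ran from -0.61 to 0.33 with a median of -0.17, and the switched livers from -0.09 to 0.38 with a median of 0.14. The groups overlapped, and all 8 switched livers lay above the mean of the lifelong group. The shift was 0.34 (two-sided exact permutation test, p = 0.0241, 0.0985 after adjustment over 12 tests). For Cyp3a11 minus Cyp3a13 the lifelong livers at 24 months ran from -0.71 to 0.21 and the switched livers from -0.17 to 0.35, again with 8 of 8 above the lifelong mean. That shift was 0.34 too (exact p = 0.0410, adjusted 0.0985). For Cyp3a13 minus Cyp3a25 the shift was -0.00088 (exact p = 0.995).

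Cyp3a11 was also tested against the other genes over age. From 6 to 24 months Cyp3a11 moved by -0.36 relative to Cyp3a25 (exact permutation p = 0.0332, adjusted 0.0985) and by -0.39 relative to Cyp3a13 (exact p = 0.0379, adjusted 0.0985). From 6 to 12 months it moved by -0.21 relative to Cyp3a25 (exact p = 0.0251, adjusted 0.0985) and by -0.15 relative to Cyp3a13 (exact p = 0.279, adjusted 0.419). None of the 12 tests passed 0.05 after adjustment. Cyp3a11 minus Cyp3a25 passed only without replicate 1 of the lifelong livers at 24 months. The shift was then 0.43 for switched against lifelong livers and -0.45 for 24 against 6 months, each with an adjusted exact permutation p of 0.0140. Both rest on the same lifelong livers at 24 months. For 24 against 12 months no liver left out brought Cyp3a11 minus Cyp3a25 past 0.05 (lowest adjusted exact permutation p 0.0932). For Cyp3a11 minus Cyp3a13 none did in any comparison (lowest adjusted exact permutation p 0.0601).

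**Figure D3:**
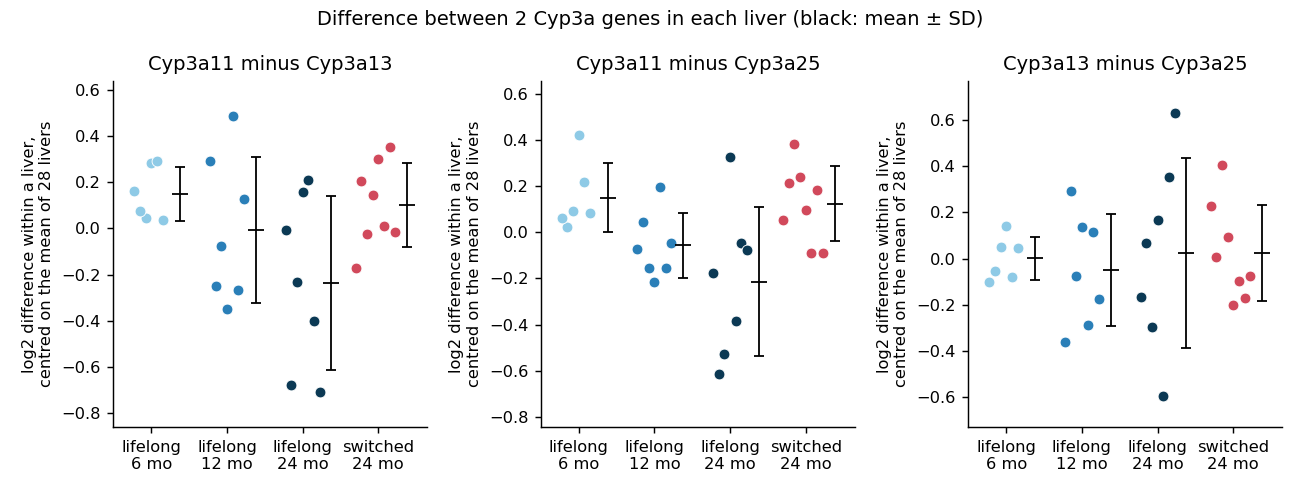
Difference between the log2 levels of 2 genes within each liver, centred on its mean over 28 livers (y axis), by group (x axis), with the black bar giving the mean ± SD. In the panels with Cyp3a11 the lifelong livers at 24 months reach down to -0.71 and -0.61, and in the panel of Cyp3a13 minus Cyp3a25 the group means lie between -0.05 and 0.02.

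Across livers, with group and prefix terms removed, Cyp3a11 and Cyp3a25 had a Pearson r of 0.38 (permutation p = 0.0443, adjusted over 3 pairs 0.133) and a Spearman rho of 0.44 (p = 0.0194, adjusted 0.0581), n = 28. Without the 2 livers farthest from the median of Cyp3a11 the r was 0.42. For Cyp3a11 and Cyp3a13 r was 0.23 (permutation p = 0.248, adjusted 0.371), with rho 0.11 (p = 0.579), and without the 2 farthest livers r was 0.10. For Cyp3a13 and Cyp3a25 r was 0.0062 (permutation p = 0.976), with rho 0.028 (p = 0.886), and without the 2 farthest livers r was 0.16. Within G150 (n = 18) the r values were 0.52, 0.33 and 0.30 in that order of pairs. Within single groups, on the values as deposited with no term removed, the order of the pairs was not the same. At 6 months (n = 6) all 3 were high (0.79 for Cyp3a11 with Cyp3a25, 0.85 for Cyp3a11 with Cyp3a13 and 0.93 for Cyp3a13 with Cyp3a25). There replicate 1 held the highest level of all 3 genes. In the lifelong livers at 24 months (n = 7) the r values were -0.10, 0.08 and -0.20. No pair passed after adjustment, and differences between the r values were not tested.

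Of the 6 relatives, Cyp3a16, Cyp3a44 and Cyp3a57 have a probe set of their own. Cyp3a41a, Cyp3a41b and Cyp3a59 are named only by the 3 probe sets that list several Cyp3a genes. Shared sets 2 and 3 name Cyp3a11, Cyp3a41a, Cyp3a41b and Cyp3a44, and shared set 1 names Cyp3a25, Cyp3a57 and Cyp3a59. Signal from a probe set that names several genes cannot be assigned to 1 gene, and whether transcripts of Cyp3a11 hybridise to the Cyp3a44 probe set was not tested.

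Cyp3a44 followed Cyp3a11 closely. Its levels ran from 5.22 to 6.36 at 6 months (median 5.35), from 5.28 to 5.92 at 12 months (median 5.56), from 4.83 to 5.70 at 24 months of lifelong diet (median 5.19) and from 5.23 to 6.10 in the switched livers (median 5.83). The groups overlapped, and the same group held the lowest median as for Cyp3a11. Switched livers lay 0.54 above lifelong livers at 24 months (SE 0.16, 1.45-fold, unadjusted p 0.00285, adjusted p 0.360 in limma), with 6 of 8 above every lifelong liver. At 24 months the difference was -0.30 from 6 months (adjusted p 0.370 in limma) and -0.37 from 12 months (adjusted p 0.409 in limma). Within G150, G151 and G152 the difference between switched and lifelong livers was 0.67, 0.80 and -0.02, the last from 1 against 2 livers. For 24 with 6 months these values were -0.47, -0.28 and 0.08, and for 24 with 12 months -0.48, -0.60 and 0.11. The sign was not the same in every prefix.

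Between switched and lifelong livers at 24 months the shared probe sets that name Cyp3a11 had larger differences than the one that names Cyp3a25. The sets were not tested against each other. Between 12 and 6 months shared set 1 differed by 0.22 and sets 2 and 3 by -0.02 and -0.03. For switched against lifelong livers at 24 months, shared set 2 differed by 0.61 (SE 0.14, adjusted p 0.175 in limma) and shared set 3 by 0.58 (SE 0.14, adjusted p 0.201 in limma), with 8 of 8 switched livers above the lifelong mean in each. In each, 3 of 8 lay above every lifelong liver. Within G150, G151 and G152 the differences were 0.73, 0.88 and 0.14 for set 2 and 0.70, 0.89 and 0.04 for set 3. Shared set 1 differed by 0.15 (SE 0.13, adjusted p 0.852 in limma). With group and prefix terms removed, Cyp3a11 correlated across the 28 livers at 0.94 with shared set 2, 0.93 with shared set 3 and 0.42 with shared set 1, and Cyp3a25 at 0.43, 0.40 and 0.92. These r values are descriptions, since the probe sets were measured on the same arrays and can share sequence.

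The own probe sets of Cyp3a16 and Cyp3a57 were dim, brighter than 7.02% and 8.20% of probe sets, and the files hold no detection call. Cyp3a16 ranged from 2.42 to 3.12 over all livers and was 0.21 higher in switched than in lifelong livers at 24 months (SE 0.08, unadjusted p 0.0204, adjusted p 0.560 in limma). Cyp3a57 ranged from 2.37 to 3.10 and differed by 0.10 (SE 0.09, adjusted p 0.852 in limma). Of the 3 relatives 0 passed the adjusted threshold in any comparison.

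**Figure D4:**
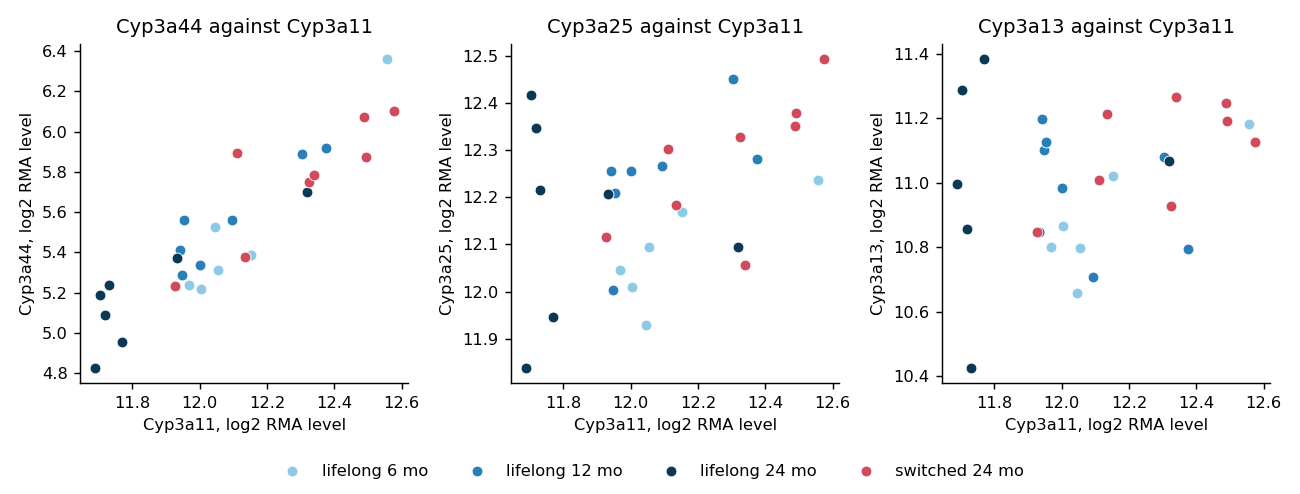
Log2 RMA levels of Cyp3a44, Cyp3a25 and Cyp3a13 (y axes) against Cyp3a11 (x axis) in each of the 28 livers, with colours for the groups. The points of Cyp3a44 follow a rising band (r = 0.92 as deposited), while those of Cyp3a25 (r = 0.42) and Cyp3a13 (r = 0.27) scatter widely.

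Genes with the most similar pattern over the 28 livers were ranked by Pearson r after removal of the prefix term, as a description with no test. Cyp3a11 was most like Cyp3a44 (0.92), then Clybl (0.79, a mitochondrial lyase of citramalyl-CoA), Scoc (0.74, a coiled-coil protein of the Golgi), Suclg2 (0.71, a subunit of succinyl-CoA ligase) and Tceal8 (0.70). It was least like Olfr961 (-0.70), Exoc3l (-0.69) and Ppp1r32 (-0.67). The group means of Olfr961 (2.54 to 2.67) and Ppp1r32 (4.01 to 4.34) lay below the array medians. Cyp3a13 was most like Cpne3 (0.78, a copine that binds phospholipids), the fibrinogen chains Fgg (0.73) and Fga (0.71), Mat1a (0.72, the hepatic methionine adenosyltransferase) and Prps1 (0.72, a phosphoribosyl pyrophosphate synthetase). It was least like Lsamp (-0.73), Ccdc116 (-0.71) and Olfr1243 (-0.70). These genes also had group means below the array medians, with Olfr1243 the dimmest (3.20 to 3.31). Cyp3a25 was most like Ndc1 (0.83, a nucleoporin), Cenpx (0.80), Bphl (0.77, a hydrolase), Mpc1 (0.76, of the mitochondrial pyruvate carrier) and Akr1e1 (0.76, an aldo-keto reductase), and least like Brd2 (-0.79), Adamts15 (-0.73) and Ttpal (-0.72). Cyp3a57 ranked 7th among the genes most like Cyp3a25 (0.76). The Cyp3a57 probe set was dim, and whether transcripts of Cyp3a25 hybridise to it was not tested. With Nr1i2, the gene of PXR itself, Cyp3a11 had an r of 0.17.

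Of the receptors and factors known to act on Cyp3a genes, none passed between the lifelong ages or between switched and lifelong livers at 24 months. Of 19 measured of 24 regulators, 0 passed in limma for switched against lifelong livers at 24 months, with 0 higher and 1 lower at an unadjusted p under 0.05 and a median difference of -0.00015 (-0.0049 over all probe sets). Between 24 and 6 months 0 passed, with 0 higher and 2 lower unadjusted and a median of -0.08. Of all probe sets 7.58% and 19.2% lay under 0.05 unadjusted in these comparisons, in that order and in either direction. In switched livers 1 of 19 fell against 6 months, the transcription factor Cebpb (-0.42, adjusted p 0.00698 in limma), and 1 against 12 months, the forkhead factor Foxa3 (-0.63, adjusted p 0.0306 in limma), with none rising. The shares of all probe sets that passed there, in either direction, were 10% and 2.32%. Nr1i2 stood at 10.26 ± 0.17 at 6 months, 10.16 ± 0.29 at 12 months, 10.12 ± 0.14 at 24 months of lifelong diet and 10.19 ± 0.20 in switched livers (SD, n = 6, 7, 7 and 8), and its groups overlapped. Its difference between switched and lifelong livers was 0.06 (SE 0.11, adjusted p 0.948 in limma). Nr1i3 has no probe set of its own and was not analysed here.

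Other genes known as targets of PXR and CAR stood higher in the switched livers without passing the threshold. Of 17 measured of 19, 0 passed for switched against lifelong livers at 24 months. A positive difference was found in 15, with a median of 0.31 (-0.0049 over all probe sets). At an unadjusted p under 0.05, 8 were higher and 0 lower, while 7.58% of all probe sets lay under 0.05 in either direction. The 8 genes, named after their values were seen, were Cyp2b10 (1.06), the fatty acid transporter Cd36 (0.94), the drug efflux pump Abcb1a (0.66), Cyp2c55 (0.65), the exporters Abcc3 (0.37) and Abcc4 (0.25), and the glutathione transferases Gstm3 (0.31) and Gstm1 (0.18). Cyp2b10, the classical CAR target, ran from 3.98 to 5.77 in lifelong and from 4.79 to 7.63 in switched livers at 24 months, with overlap (SE 0.38, unadjusted p 0.00975, adjusted p 0.485 in limma). Cyp2c29, also named after its value was seen, differed by 0.07 (SE 0.11, adjusted p 0.933 in limma).

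The same targets with age are given side by side with Cyp3a11. Among all probe sets, 4.73% passed between 24 and 6 months and 10% in switched livers against 6 months, in either direction. Between 24 and 6 months of lifelong diet Cd36 rose by 1.11 (SE 0.27, adjusted p 0.0160 in limma) and Gstm3 by 0.45 (SE 0.11, adjusted p 0.0180 in limma), 2 of 17 with 0 falling, and the median of the list was 0.28 (-0.016 over all probe sets), where Cyp3a11 stood at -0.29. Between 12 and 6 months 0 of 17 passed, with 7 higher and 1 lower unadjusted. Of all probe sets 0.591% passed there and 13.1% lay under 0.05 unadjusted, in either direction. In switched livers against 6 months 10 rose and 1 fell, the carboxylesterase Ces2a (-0.74, adjusted p 0.00298 in limma), and the median was 0.66. Cyp2b10 rose by 1.35 there (adjusted p 0.0279 in limma), as did Cd36 by 2.05, beside 0.16 for Cyp3a11, which did not pass.

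**Figure D5:**
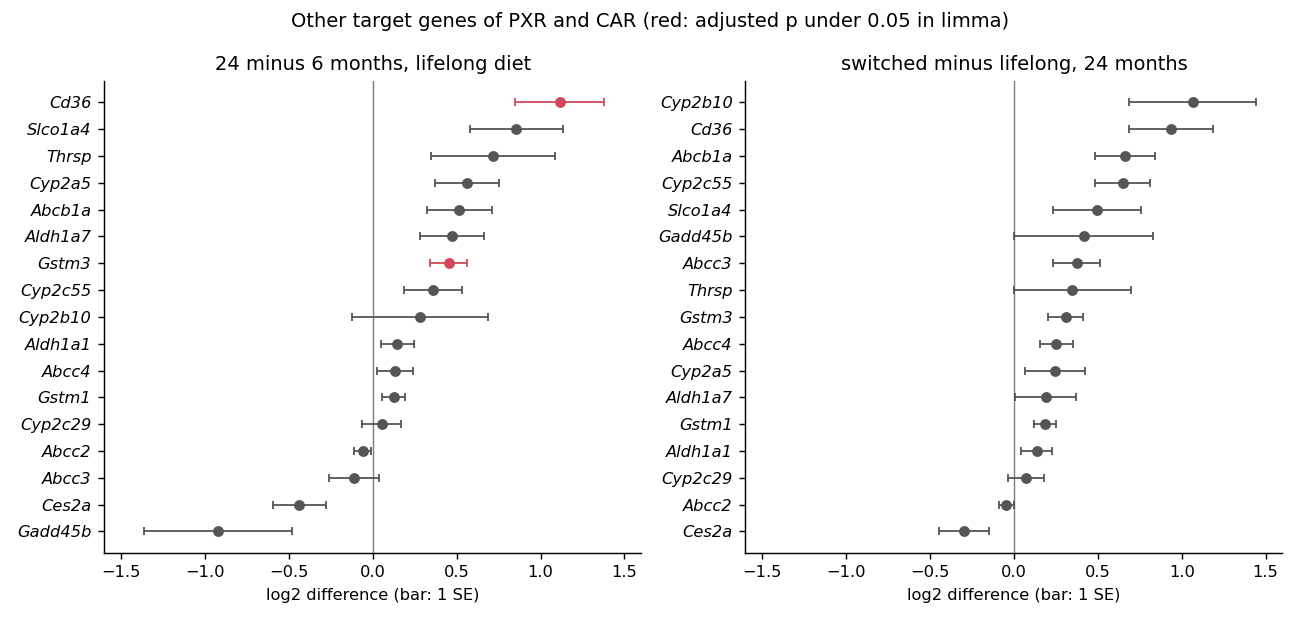
Log2 difference (x axis, bar 1 SE from limma) of the 17 measured target genes of PXR and CAR other than Cyp3a genes, for 24 against 6 months of lifelong diet and for switched against lifelong livers at 24 months. Red marks Cd36 and Gstm3, which passed for 24 against 6 months, and in the panel of switched livers 15 of 17 lie above 0 with none past the threshold.

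Genes that supply the enzymes with electrons and haem did not pass in either main comparison. Of 14 measured genes of electron transfer and haem supply, 0 passed for switched against lifelong livers at 24 months, 0 at an unadjusted p under 0.05, with a median of 0.02, and 0 passed for 24 against 6 months (3 higher and 2 lower unadjusted). Of all probe sets, 0.0197% and 4.73% passed in these comparisons, and 7.58% and 19.2% lay under 0.05 unadjusted, in either direction. Alas1, the rate-limiting enzyme of haem synthesis, stood at 12.03 ± 0.34 in lifelong (n = 7) and 12.24 ± 0.07 in switched livers (SD, n = 8) at 24 months, a difference of 0.20 (SE 0.11, adjusted p 0.710 in limma). Por, the P450 reductase, was not analysed here. Among 21 other drug-metabolising cytochromes, Cyp2b13 rose (3.26, adjusted p 0.000118 in limma) and Cyp2d9 fell (-0.54, adjusted p 0.0341 in limma) in switched against lifelong livers at 24 months. The median was -0.03, and 0.0197% of all probe sets passed there. Between 24 and 6 months 2 of the 21 rose and 1 fell, beside 4.73% of all probe sets in either direction. In switched livers against 6 months 4 rose and 4 fell, beside 10% of all probe sets.

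Several gene groups differed between the same livers, and their part in the Cyp3a values was not tested. Among all probe sets, 0.0197% passed for switched against lifelong livers at 24 months, in either direction. The share was 4.73% between 24 and 6 months and 10% in switched livers against 6 months. At an unadjusted p under 0.05 it was 7.58% for switched against lifelong livers at 24 months. Of 14 male-biased liver genes 2 fell in switched against lifelong livers at 24 months (Susd4 and Cyp2d9), none rose, and the median was -0.65. Between 24 and 6 months 7 of the 14 fell and 0 rose (median -0.73), among them Ugt2b38 (-1.05) and Cyp2d9 (-0.43), and in switched livers against 6 months all 14 fell (median -1.42). Of 10 female-biased genes, a list that holds Cyp3a16 and Cyp3a44, 1 rose in switched against lifelong livers (Cyp2b13), none fell, and the median was 0.57. Between 24 and 6 months 2 of them rose and 0 fell (median 0.11), and in switched livers against 6 months 6 rose and 0 fell (median 1.01). Mean list scores of the male-biased genes ran from -0.88 to 0.33 in lifelong and from -1.19 to -0.07 in switched livers at that age, and from 0.44 to 0.98 at 6 months. Of 23 acute phase genes 6 rose and 0 fell between 24 and 6 months (median 0.25), among them Mt2 by 2.09 and Itih4 by 0.35, and 0 passed for switched against lifelong livers (4 higher and 0 lower unadjusted, median 0.09). Of 16 pericentral genes, which mark the zone where Cyp3a enzymes are known to be most abundant, and of 11 periportal genes, 0 passed for switched against lifelong livers, with medians of -0.02 and -0.04 and 1 lower and 1 higher unadjusted. Between 24 and 6 months 1 pericentral gene rose and 0 fell, and 2 periportal genes rose and 1 fell.

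Some B and plasma cell and macrophage markers differed between 24 and 6 months as well, and their part in the Cyp3a values was not tested. Between these ages 4.73% of all probe sets passed, in either direction. For switched against lifelong livers at 24 months 0.0197% passed and 7.58% lay under 0.05 unadjusted. Of 13 B and plasma cell markers 8 rose and 0 fell between 24 and 6 months, with mean list scores of -0.65 to -0.35 at 6 months and -0.21 to 0.81 at 24 months, and of 18 macrophage markers 3 rose and 0 fell (-0.41 to 0.02 and -0.49 to 0.73). Of 13 hepatocyte markers 0 rose and 1 fell between these ages, with scores of 0.01 to 0.11 and -0.10 to 0.07. No marker of T and NK cells, neutrophils, endothelium, stellate cells and fibroblasts, bile duct cells or red blood cells passed between them. Between 12 and 6 months no B and plasma cell or macrophage marker passed. Between 24 and 12 months 1 B and plasma cell marker rose and 0 macrophage markers passed, beside 0.0253% of all probe sets. For switched against lifelong livers at 24 months 0 of 13 B and plasma cell, 0 of 18 macrophage and 0 of 13 hepatocyte markers passed in limma (0 higher and 1 lower, 1 higher and 0 lower, and 0 of either unadjusted). The hepatocyte scores of those groups ran from -0.10 to 0.07 and from -0.07 to 0.01, and the macrophage scores from -0.49 to 0.73 and from -0.32 to 1.39.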

How the data were processed

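Liver RNA with an RNA integrity number above 8 was labelled with biotin and hybridised to whole-transcript arrays, 1 for each mouse. Per the labels, the authors deposited log2 expression values, and RMA is named in the submitters' processing notes, with no version and no statement on whether all arrays were normalised together. The values were used as deposited, with no filter and no detection call. Of 35556 probe sets 21218 name 1 gene, 1881 several and 12457 none in the platform annotation, whose symbols matched RefSeq (0 updated).

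All arrays entered 1 fit in limma 3.58.1 (R 4.3.3) with group and array-name prefix as terms, two-sided, with Benjamini-Hochberg adjustment over all probe sets. The fit was also run on simulated data, and how often it recovers shifts as small as those seen here is not reported. Differences in response between genes were tested by exact permutation of livers, and correlations by 100000 permutations (Python 3.11.15, scipy 1.17.1). A list score is the mean over a list's genes of the level minus its mean over all arrays. The genes and the 20 lists were chosen with earlier results of these data known.

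The 3 genes and their relatives, Nr1i2 and Alas1 were named whatever their values. From each list at most the 4 genes with the smallest p among those passing were to be named. Outside this rule, and after their values were seen, the PXR and CAR targets at an unadjusted p under 0.05, Cyp2c29, and Cyp2b10 and Ces2a against 6 months were named. Also named were, for each of the 3 genes the 5 others most like and the 3 least like it, predicted genes and small RNAs passed over. The number of arrays, with 6 to 8 in a group, limits the precision. The labels give each mouse its own number, so arrays are separate animals. Alternatives were the prefix term, single prefixes, the arrays in the fit, a filter, normalisation, the variance model, array weights, a replicate block and leaving out each liver. Settings without 2 arrays whose names carry a suffix, and with the shared probe sets, were chosen after seeing the data.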

Additional observations from a re-analysis of the deposited data

Results flagged for a closer look

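In 6 of 36 sets of livers (9 Cyp3a probe sets in 4 groups) the highest or lowest liver stood far from the others, by a rule that chance meets in about 1 of 20 groups. The 6 share 2 livers. Replicate 1 at 6 months had 12.56 for Cyp3a11 (next liver 12.15), 6.36 for Cyp3a44 (next 5.53) and 8.78 for shared set 2 (next 8.31). Replicate 1 of the lifelong group at 24 months had 12.32 for Cyp3a11 (next 11.93), 8.87 for shared set 2 (next 8.22) and 8.48 for shared set 3 (next 7.86). These probe sets name Cyp3a11 or its neighbour Cyp3a44 and may read the same transcripts, so the 6 are not separate observations. For Cyp3a13 and Cyp3a25 no liver stood apart in this way.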

How the results depend on the processing

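Cyp3a11 kept its direction for switched against lifelong livers in all 12 other settings (0.30 to 0.56, adjusted p 0.142 to 1.00 in limma) and without each liver in turn (0.42 to 0.53), and passed only without replicate 1 of the lifelong livers at 24 months. No other setting brought Cyp3a11, Cyp3a13 or Cyp3a25 past the threshold. Signs turned for small differences, and the cause was not tested. Cyp3a13 gave -0.042 for 24 with 6 months in G150 alone, and 0.13 for 24 with 12 months and -0.032 for switched with lifelong livers in G151 and G152 alone. Cyp3a13 minus Cyp3a25 gave 0.013 for switched with lifelong livers with the prefix term removed and 0.11 in G150, and -0.12 for 24 with 6 months in G150. Without each liver in turn, Cyp3a11 for 12 with 6 months ran from -0.079 to 0.049, and Cyp3a13 from -0.0012 to 0.19 for 24 with 6 and from -0.13 to 0.076 for 24 with 12 months. Cyp3a13 minus Cyp3a25 ran from -0.079 to 0.13 for 24 with 6 months, from -0.026 to 0.18 for 24 with 12 and from -0.10 to 0.10 for switched with lifelong livers. Cyp3a11 minus Cyp3a25 ran from -0.45 to -0.30 for 24 with 6 months and from 0.27 to 0.43 for switched with lifelong livers.

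The number of probe sets called, the background of the 3 genes, depended on the setting. For 12 with 6 months, 24 with 6, 24 with 12 and switched with lifelong livers the main counts were 210, 1681, 9 and 7. They were 0, 194, 0 and 2 in G150 alone, 0, 3, 0 and 1 in G151 and G152 alone, and 22, 736, 1 and 0 with only the groups compared, settings with fewer arrays. For 12 with 6, 24 with 12 and switched with lifelong livers, array weights gave 518, 23 and 2, and leaving out 2 arrays whose names carry a suffix 46, 39 and 1. For 12 with 6 and 24 with 12 months, no prefix term gave 108 and 3, and 1-gene probe sets alone 332 and 31. Without the lowest 30% of probe sets 24 with 12 months gave 33. Leaving out each liver gave 7 to 546, 831 to 2370, 1 to 124 and 1 to 36.

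Same-numbered livers of 2 groups correlated at -0.14 to 0.14 in their deviations from the group means, so the numbers did not pair them. A replicate block gave 122, 1334, 0 and 2 probe sets called, and 0.48 for Cyp3a11 in switched with lifelong livers (adjusted p 0.415 in limma).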

Other observations

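At 6 months, replicate 1 held the highest level of all 3 genes in its group (Cyp3a11 12.56, Cyp3a13 11.18, Cyp3a25 12.24). At 24 months of lifelong diet, replicate 1 was the highest for Cyp3a11 (12.32) but stood at 11.07 for Cyp3a13 and 12.09 for Cyp3a25, inside the range of the other livers of that group.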
